A study of Mus musculus with 4 samples.

Results

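The Tcstv cluster of mouse chromosome 13 is a set of neighbouring genes transcribed in the 2-cell embryo, here Tcstv1, Gm21761, Gm20767, Gm21818, AF067061, BC147527 and Tcstv3 in chromosomal order. These 7 genes were taken by symbol from the deposited expression tables, which list 25170 genes, and all 7 were found. They were selected on their FPKM values in these same 4 libraries, known from earlier results, so the values are given as a description and carry no test. RNA was sequenced from 4 libraries of mouse embryonic stem cells grown in serum with LIF on gelatin, with 1 library in each group. The groups were wild-type cells given an inhibitor labelled SO, cells with an Ldha knockout (Ldha_KO), cells with an Ldhb knockout (Ldhb_KO), and wild-type E14 cells (WT). The labels do not say what SO stands for, at what dose or for how long it was given, or whether each knockout is a single clone. Ldha and Ldhb encode the subunits of lactate dehydrogenase, and the series title places the study at the link between Ldha, lactylation of Hdac1 and the 2-cell state.

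The 2-cell state is the transcriptional programme of the embryo at the onset of zygotic transcription, and a small share of cultured embryonic stem cells passes through it at any time. Tcstv stands for a variable group of transcripts found at the 2-cell stage, and raised expression of Tcstv1 or Tcstv3 has been linked to longer telomeres in mouse embryonic stem cells. Gm symbols mark predicted gene models, and RefSeq annotates all 7 genes as protein-coding.

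The members are copies of one another, which bears on every value below. Each has a coding sequence in a single exon, with a coding length of 501 bases in BC147527 and of 507 to 513 bases in the other genes (GENCODE M21 transcripts). Over the 21 pairs, identity between coding sequences had a median of 94.5%, from 86.7% between Tcstv1 and BC147527 to 97.5% between Gm21761 and AF067061. The first 120 coding bases are shown to let the copies be compared, with capitals at the bases that differ from Gm21761, the most abundant member.
Gm21761: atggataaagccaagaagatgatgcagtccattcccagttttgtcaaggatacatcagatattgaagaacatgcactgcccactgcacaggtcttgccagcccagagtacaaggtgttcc
Gm21818: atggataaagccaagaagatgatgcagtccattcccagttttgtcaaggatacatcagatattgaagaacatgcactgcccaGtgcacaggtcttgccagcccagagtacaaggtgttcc
Tcstv3: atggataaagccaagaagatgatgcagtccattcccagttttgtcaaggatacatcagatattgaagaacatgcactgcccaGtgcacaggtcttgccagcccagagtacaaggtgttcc
Tcstv1: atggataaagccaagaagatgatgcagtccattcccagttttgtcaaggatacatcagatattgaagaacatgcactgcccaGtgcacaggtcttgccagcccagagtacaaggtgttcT
AF067061: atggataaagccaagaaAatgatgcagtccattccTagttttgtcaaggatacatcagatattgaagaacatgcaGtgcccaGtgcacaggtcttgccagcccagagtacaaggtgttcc
Gm20767: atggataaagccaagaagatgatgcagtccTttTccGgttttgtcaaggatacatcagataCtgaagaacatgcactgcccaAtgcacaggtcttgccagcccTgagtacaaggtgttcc
BC147527: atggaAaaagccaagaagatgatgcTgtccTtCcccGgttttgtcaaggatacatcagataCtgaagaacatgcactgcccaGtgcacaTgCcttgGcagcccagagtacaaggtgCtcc
Gm21818 and Tcstv3 each differ from Gm21761 at 1 base of this stretch, Tcstv1 at 2, AF067061 at 4, Gm20767 at 6 and BC147527 at 11. Gm21818 and Tcstv3 are identical to each other over these 120 bases.

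**Figure D1:**
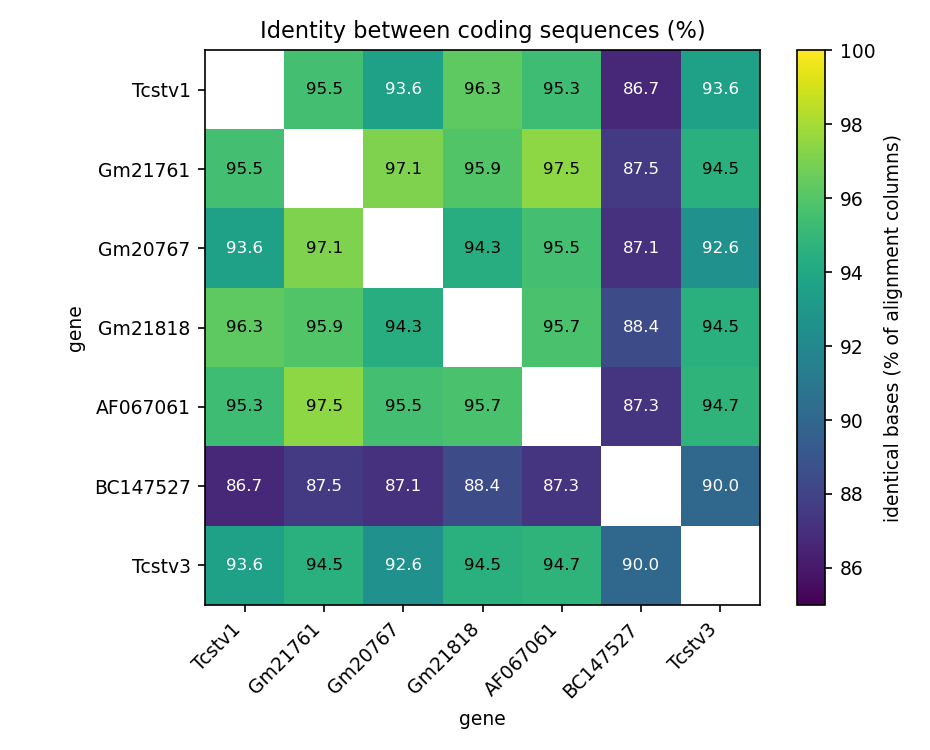
Identity between the coding sequences of each pair of members, in percent of alignment columns, from pairwise global alignment of GENCODE M21 coding sequences; both axes list the 7 genes. BC147527 stands lowest against every other member, at 86.7% to 90.0%, and the pairs of the other 6 genes lie between 92.6% and 97.5%.

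Short reads can fall on more than 1 copy. Of the 50-base windows of the longest annotated transcript, 75.3% in Gm21761 and 68.6% in Gm20767 also occur exactly in another member, and Gm21761 shares 63.2% of its windows with Gm20767 alone. The share was 34.1% in Gm21818, 31.4% in Tcstv3, 22.4% in AF067061 and 16.8% in Tcstv1. BC147527 shared 0.323% with other members and 14.3% with any other gene. With any other gene the share was 76.2% in Gm21761, 70.2% in Gm20767 and 22.6% in AF067061. Some windows of Gm21761 and Gm20767 occur in many genes outside the cluster, so the sum over members may also hold reads from elsewhere. The sources used here do not say how reads that fit several copies were treated. Single values are therefore uncertain as to the copy that the reads came from, by these transcripts least so for BC147527 and Tcstv1. The annotation behind the deposited values is unknown, and few reads are a separate limit for rare members such as Tcstv1. The sum over the 7 members is given beside the single values.

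The levels are in FPKM, read fragments scaled by transcript length and library depth, a unit inferred from the values. The targeted genes followed the labels, with Ldha at 154 FPKM in the Ldha_KO library against 1774 in WT and Ldhb at 5.74 FPKM in the Ldhb_KO library against 76.5 in WT. Ldhb was above WT in the other libraries, at 158 FPKM in Ldha_KO and 139 FPKM in SO. Ldha was at 2237 FPKM in Ldhb_KO and 1711 FPKM in SO. The 8 markers of embryonic stem cells taken for this check had no member 2-fold apart from WT in any library. Among all genes with at least 1 FPKM in a library, 0.472% to 3.36% were 2-fold apart from WT per library and direction. A count of 0 among 8 genes is near that share. Of 10 fibroblast or feeder genes, Dcn and Lum, defining genes of fibroblasts, were listed at 0 in all 4 libraries, while Thy1 and Fbln1 lay between 18.5 and 47.4 FPKM. Pdgfrb, a receptor of mesenchymal cells, was at 3.35 FPKM in SO, 2.80 FPKM in Ldha_KO, 3.63 FPKM in Ldhb_KO and 0.949 FPKM in WT, so it was above WT in the Ldhb_KO library as well as in SO and Ldha_KO. The 10 genes summed to 69.0 FPKM in SO, 66.6 in Ldha_KO, 85.3 in Ldhb_KO and 68.1 in WT, and their part in the results was not tested. The value that 1 read adds to a gene was 0.956 of that in WT in the SO library, 1.005 in Ldha_KO and 0.950 in Ldhb_KO, as estimated from genes below 0.2 FPKM. With these values, 63.0% of such genes fitted ratios of small whole numbers within 0.2% in SO, 52.7% in Ldha_KO and 59.0% in Ldhb_KO, each against WT. The other genes did not. With the values moved by 5%, the fits fell to 0.943%, 0.767% and 0.440%. The values had been searched for as those that fitted most of these same genes, so a fall was built in. The spread of the ratio of the value of 1 read (10th to 90th percentile) was taken only over genes close to that ratio. It was 0.0169% between SO and WT, 0.615% between Ldha_KO and WT, 0.460% between Ldhb_KO and WT and 0.225% between the knockouts. The spread was thus lowest between SO and WT. The ratio itself was nearest 1 for Ldha_KO against WT and for SO against Ldhb_KO (1.006). What the spread reflects was not tested. The sources name no batch.

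Gm21761, a gene model with no role assigned here, carried most of the RNA of the cluster. It was at 73.7 FPKM in SO, 41.7 FPKM in Ldha_KO, 9.60 FPKM in Ldhb_KO and 11.1 FPKM in WT. The SO library lay 6.62-fold and the Ldha_KO library 3.74-fold above WT, while Ldhb_KO lay at 0.862 of WT. In SO the level of Gm21761 was at or above that of 95.3% of all listed genes, and in WT at or above 74.0%. In every library it ranked first among the members.

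Gm20767, the member that shares most 50-base windows with Gm21761, was at 10.7 FPKM in SO, 6.42 FPKM in Ldha_KO, 0.910 FPKM in Ldhb_KO and 1.21 FPKM in WT. Gm21818 was at 9.52 FPKM in SO, 6.18 FPKM in Ldha_KO, 1.73 FPKM in Ldhb_KO and 1.13 FPKM in WT. Tcstv3, one of the genes linked to telomere length, was at 7.52 FPKM in SO, 7.23 FPKM in Ldha_KO, 1.16 FPKM in Ldhb_KO and 1.45 FPKM in WT. All 3 genes were high in SO and Ldha_KO and low in Ldhb_KO and WT. They differed in how SO stood to Ldha_KO: the SO value was 1.66 times that of Ldha_KO for Gm20767 and 1.54 times for Gm21818, against 1.04 times for Tcstv3. Ldhb_KO lay above WT for Gm21818 only among these 3, at 1.53 times.

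The remaining 3 members were rare. BC147527, the copy least like the others, was at 1.63 FPKM in SO, 1.18 FPKM in Ldha_KO, 0.101 FPKM in Ldhb_KO and 0.0532 FPKM in WT. After division by the value of 1 read in each library, these stood as 32.0 to 22.0 to 2.00 to 1, and may thus rest on 32, 22, 2 and 1 reads, or on a multiple of these. Tcstv1, the other gene linked to telomere length, was at 0.232 FPKM in SO, 0.369 FPKM in Ldha_KO and 0.116 FPKM in Ldhb_KO and was listed at 0 in WT. Its values stood as 1.99 to 3.01 to 1 in the first 3 libraries, which may be as few as 2, 3 and 1 reads, so no order of the libraries can be read from Tcstv1. AF067061 was at 0.670 FPKM in SO, 1.18 FPKM in Ldha_KO, 0.230 FPKM in Ldhb_KO and 0.120 FPKM in WT. It was 1.76 times as high in Ldha_KO as in SO, and with Tcstv1 it was the only member not higher in SO than in Ldha_KO. After the same division AF067061 stood, relative to WT, at 5.82 in SO, 9.76 in Ldha_KO, 2.01 in Ldhb_KO and 1 in WT, so the SO and Ldha_KO values were not whole multiples of the WT value within a tolerance of 0.15.

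**Figure D2:**
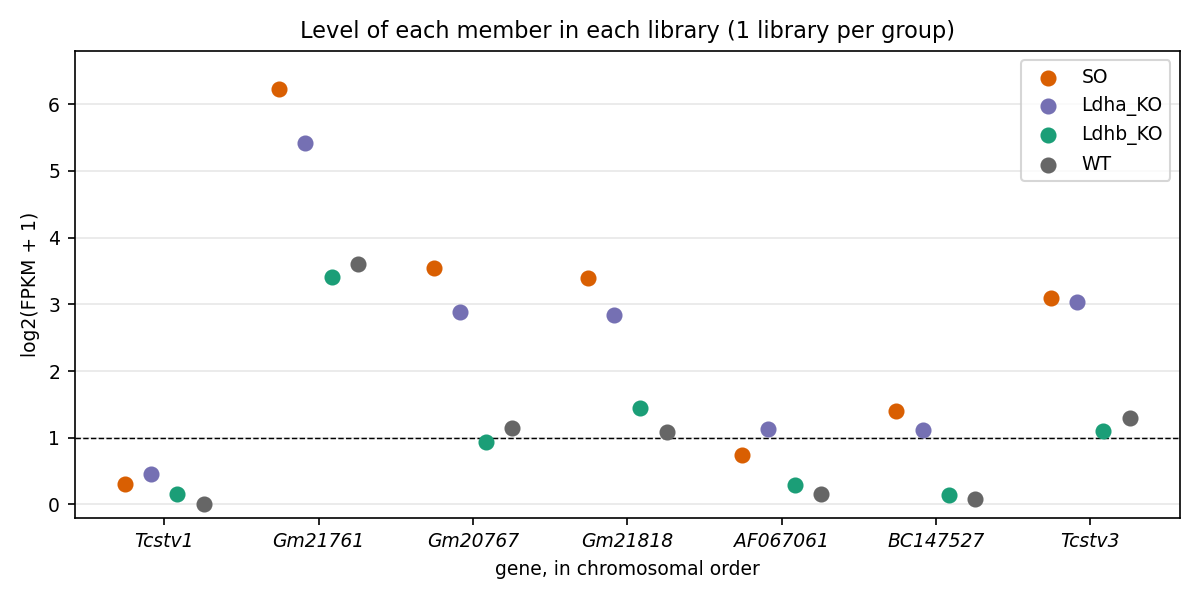
Level of each of the 7 members in each library as log2(FPKM + 1), with genes in chromosomal order and 1 point per library; the dashed line marks 1 FPKM. SO and Ldha_KO lie above Ldhb_KO and WT for the 6 members other than Tcstv1, up to 73.7 and 41.7 FPKM for Gm21761; the points of Tcstv1, at most 0.369 FPKM, are too low to be ordered.

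Summed over the 7 members, the cluster stood at 104 FPKM in SO (103.95), 64.2 FPKM in Ldha_KO, 13.8 FPKM in Ldhb_KO and 15.1 FPKM in WT. As a share of all FPKM in the library this was 0.0220% in SO, 0.0134% in Ldha_KO, 0.00286% in Ldhb_KO and 0.00287% in WT. SO and Ldha_KO were thus high and Ldhb_KO and WT low and nearly level. In bulk RNA, more cells in which these genes are active and more RNA per such cell cannot be told apart.

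The make-up of the sum moved little beside its size. Gm21761 held 70.9% of it in SO, 64.9% in Ldha_KO, 69.4% in Ldhb_KO and 73.7% in WT. Gm20767, Gm21818 and Tcstv3 together held 26.7% in SO, 30.9% in Ldha_KO, 27.4% in Ldhb_KO and 25.1% in WT. The order of these 3 differed between libraries: Tcstv3 ranked second among the members in Ldha_KO and WT, Gm20767 in SO and Gm21818 in Ldhb_KO. Without Gm21761 the sum was 30.2 FPKM in SO, 22.6 FPKM in Ldha_KO, 4.24 FPKM in Ldhb_KO and 3.97 FPKM in WT, so the 2 levels seen in the whole cluster were present in the values of the other 6 genes as well. Of the windows of Gm20767, 60.8% also occur in Gm21761, so these values may still hold reads from Gm21761.

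**Figure D3:**
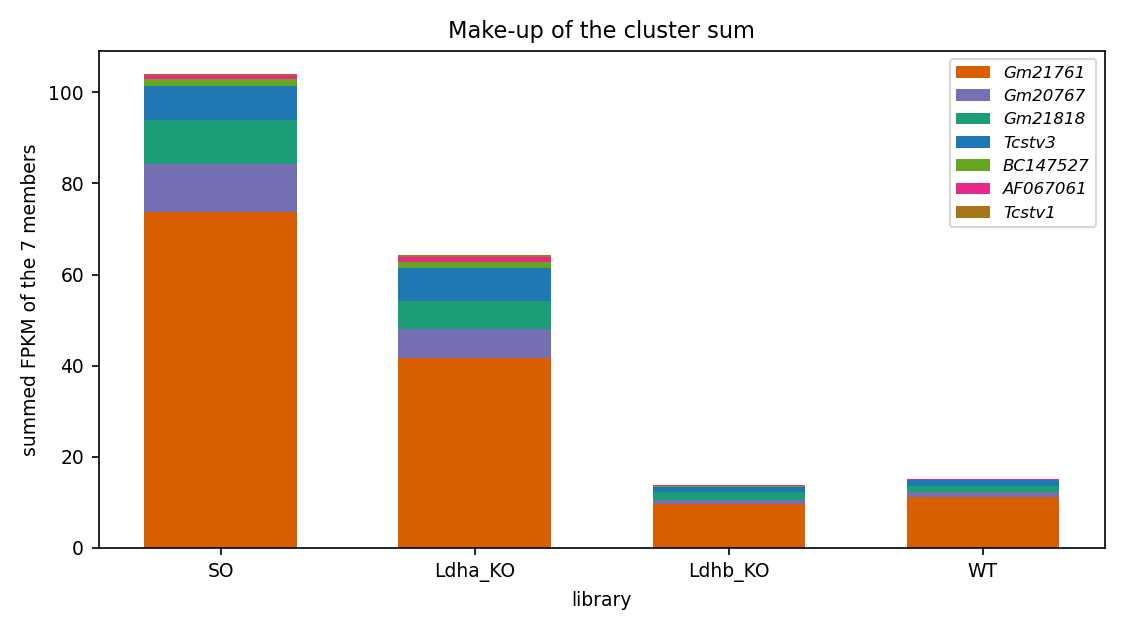
Summed FPKM of the 7 members in each library, stacked by gene on a linear axis from 0, with 1 bar per library. The sums are 104 FPKM in SO, 64.2 in Ldha_KO, 13.8 in Ldhb_KO and 15.1 in WT, and Gm21761 is the tallest part of each bar.

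To set the members beside all genes, differences were taken as log2(FPKM + 1) of the first library minus that of the second, and differences of at least 1 in size, or 2-fold on that scale, were called higher or lower by their sign. The pseudocount of 1 understates changes at low levels. With a single library in each group there is no replicate error, each difference compares libraries, and the comparisons with WT share the same WT library. Of the 7 members, 6 reached 1 FPKM in a library and so entered the 13142 genes that made up the background, while Tcstv1 did not. AF067061 and BC147527 entered through SO or Ldha_KO alone.

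In SO against WT, 5 of 7 members were called higher and 0 lower, where 2.69% of the 13142 background genes were called higher and 0.472% lower. The difference was 2.70 for the cluster sum, 2.62 for Gm21761, 2.40 for Gm20767, 2.30 for Gm21818, 1.80 for Tcstv3 and 1.32 for BC147527. AF067061 at 0.58 and Tcstv1 at 0.30 lay above 0 without reaching the call. The median over the 7 members was 1.80, beside a median of -0.04 over the background. For BC147527 the WT value of 0.0532 FPKM may be worth a single read. With the pseudocount of 1, its call in this comparison depends mainly on the SO value of 1.63 FPKM.

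In Ldha_KO against WT, 5 of 7 members were called higher and 0 lower, where 2.65% of background genes were called higher and 1.06% lower. The difference was 2.02 for the cluster sum, 1.81 for Gm21761, 1.75 each for Gm20767, Gm21818 and Tcstv3, and 1.05 for BC147527. AF067061 was just short of the call at 0.96, and Tcstv1 stood at 0.45. The median over members was 1.75, beside -0.03 over the background. The called members were the same 5 genes as in SO, in comparisons that share the WT library.

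In Ldhb_KO against WT, 0 of 7 members were called higher and 0 lower, where 3.36% of background genes were called higher and 1.09% lower. The cluster sum differed by -0.12. Single members ranged from -0.21 for Gm20767 to 0.36 for Gm21818, with 4 above 0 and 3 below, and their median was 0.06, beside -0.02 over the background. Without replicates these values do not show that the cluster was level between the libraries, only that no member reached 2-fold on the log2(FPKM + 1) scale.

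The knockouts were set against each other directly. In Ldha_KO against Ldhb_KO, 4 of 7 members were called higher and 0 lower, where 1.67% of background genes were called higher and 1.54% lower. The cluster sum differed by 2.14, and the called members were Gm21761 at 2.01, Gm20767 at 1.96, Tcstv3 at 1.93 and Gm21818 at 1.40. BC147527 stood just below the call at 0.98, AF067061 at 0.83 and Tcstv1 at 0.29. All 7 differences were above 0. This comparison does not use the WT library and lies between libraries whose ratio of the value of 1 read spread by 0.225% over genes.

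In SO against Ldha_KO, 0 of 7 members were called in either direction, where 0.746% of background genes were called higher and 1.10% lower. The cluster sum differed by 0.69, which on the linear scale is 1.62-fold. Gm21761 had the largest difference at 0.81, followed by Gm20767 at 0.65, Gm21818 at 0.55, BC147527 at 0.27 and Tcstv3 at 0.05, while Tcstv1 at -0.15 and AF067061 at -0.39 lay the other way. The sum of Tcstv1 and Tcstv3 alone was 7.76 FPKM in SO and 7.60 FPKM in Ldha_KO, so the gap between these libraries came mainly from the Gm gene models.

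**Figure D4:**
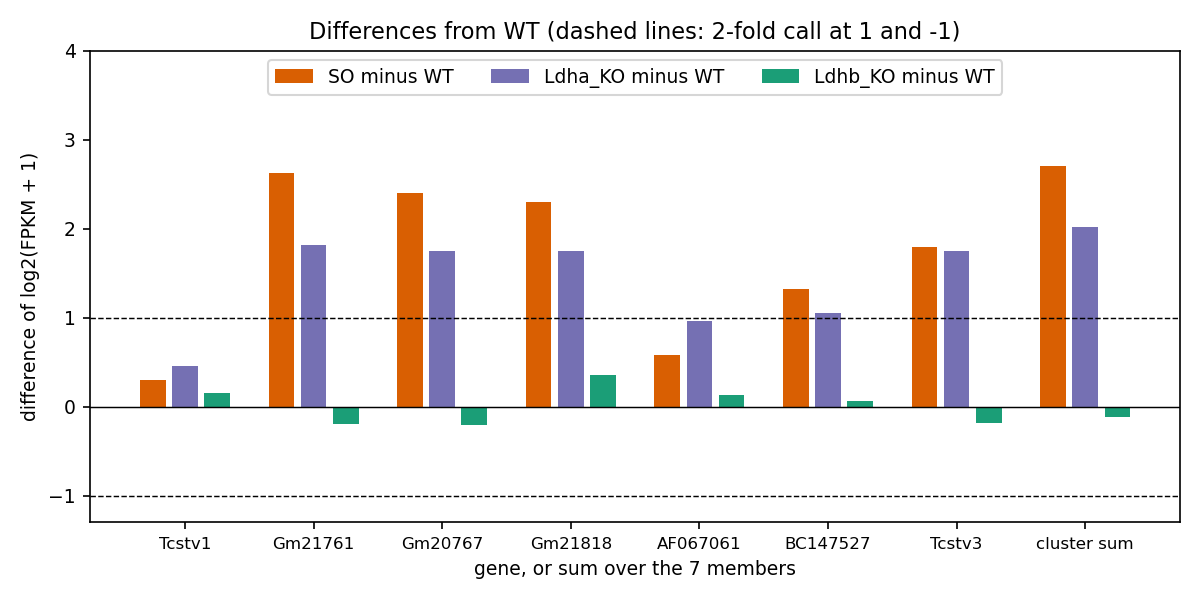
Difference of log2(FPKM + 1) from WT for each member and for the sum over the 7 members, with 1 bar per library (SO, Ldha_KO, Ldhb_KO) and dashed lines at the 2-fold call of 1 and -1. Gm21761, Gm20767, Gm21818, BC147527, Tcstv3 and the sum pass 1 in SO and in Ldha_KO, and no bar of Ldhb_KO does.

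Other genes of the 2-cell programme were taken from lists of known 2-cell genes, of which 39 distinct genes outside the cluster were found. Of these 39, 21 were called higher in SO than in WT, 18 in Ldha_KO than in WT, 0 in Ldhb_KO than in WT and 16 in Ldha_KO than in Ldhb_KO. Over the background the shares called higher were 2.69%, 2.65%, 3.36% and 1.67% in the same comparisons. Several of the called genes, among them the called Usp17l genes, were below 1 FPKM in both Ldhb_KO and WT. They thus reached 1 FPKM through SO or Ldha_KO alone. The lists were also chosen with earlier results of these data known, so the counts are a description. Zfp534 was the only one of the 39 called lower in these 4 comparisons, in Ldhb_KO against WT, at 12.0 FPKM against 25.3 FPKM. Over the background the shares called lower were 0.472%, 1.06%, 1.09% and 1.54%. The summed level of the 5 Zscan4 genes found, a family linked to telomere maintenance, was 8.54 times WT in SO, 5.65 times in Ldha_KO and 1.06 times in Ldhb_KO. The Eif1a-like genes stood at 9.93, 7.42 and 0.890 times WT in the same libraries, and the Usp17l deubiquitinases at 9.01, 7.08 and 0.882 times. The chromosome 13 cluster stood at 6.88, 4.25 and 0.916 times WT. The 19 other 2-cell genes found, which belong to none of these families, summed to 1.42 times WT in SO, 1.35 times in Ldha_KO and 0.698 times in Ldhb_KO. Of these 19, the count called higher against WT was 6 for SO, 3 for Ldha_KO and 0 for Ldhb_KO. Only 7 of the 10 Eif1a-like genes found and 12 of the 19 others reached 1 FPKM in a library, so the rest are not among the background genes. How far reads are shared within the other families was not measured.

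**Figure D5:**
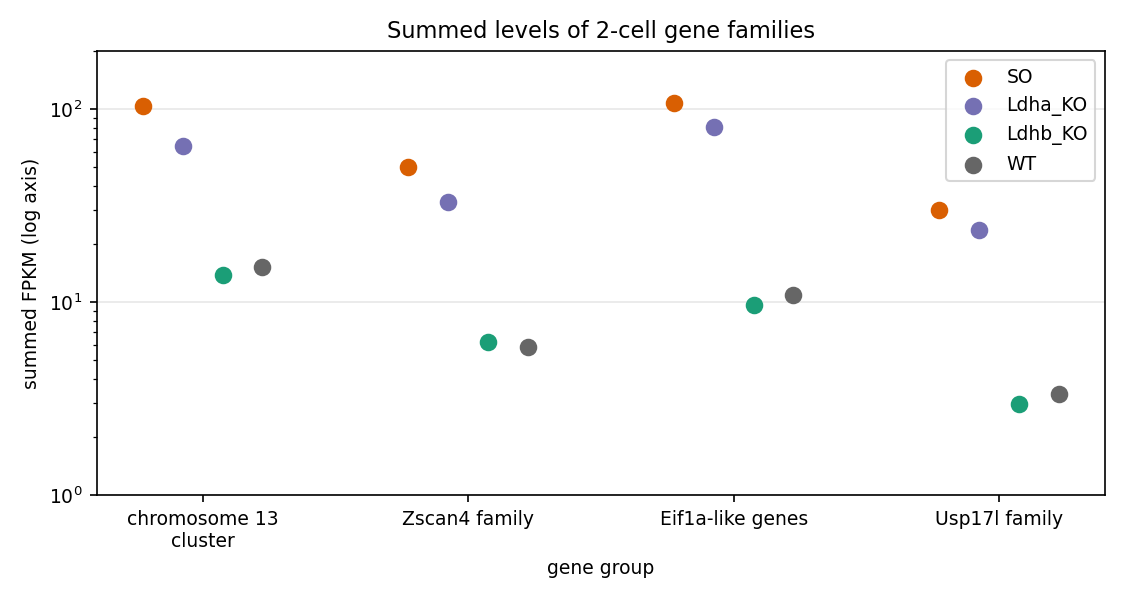
Summed FPKM on a log axis for the 7 members on chromosome 13 and for the Zscan4 family, the Eif1a-like genes and the Usp17l family, with 1 point per library. In each group SO and Ldha_KO lie above Ldhb_KO and WT; the chromosome 13 cluster is at 104 FPKM in SO and 64.2 FPKM in Ldha_KO, against 13.8 FPKM in Ldhb_KO and 15.1 FPKM in WT.

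Genes of other loci with the most similar pattern were sought by the Euclidean distance between the differences of SO, Ldha_KO and Ldhb_KO from WT, over 9766 genes that reached 5 FPKM in a library. Nearest to the cluster sum was Zscan4c at a distance of 0.21, followed by Gm2022 at 0.27, Zscan4d at 0.30, Gm5039 at 0.32 and Zscan4a at 0.35. For single members the nearest genes were Zscan4c for Gm21761 at 0.25, Gm4971 for Gm20767 at 0.32, Cd80 for Gm21818 at 0.31 and Usp17la for Tcstv3 at 0.30. The nearest genes for the rare members were Abhd11os for AF067061 at 0.12 and Mdm2 for BC147527 at 0.24. For these 2 members the likeness holds only on the log2(FPKM + 1) scale, where the pseudocount shrinks differences of rare genes. In SO, BC147527 was 30.6 times WT, while Mdm2 was at 103 FPKM against 41.9 FPKM in WT. AF067061 was 5.56 times WT in SO, while Abhd11os was at 5.15 FPKM against 3.17 FPKM in WT. With 4 libraries, 1 of them shared by the 3 differences, this likeness is a description.

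Of 23 further genes within 5 places of a member in the RefSeq gene order (GRCm38.p6), 3 are listed in the tables, and all 3 were below 1 FPKM in every library, so they did not enter the background. AF067063 was at 0.800 FPKM in SO, 0.121 FPKM in Ldha_KO and 0.114 FPKM in Ldhb_KO and was listed at 0 in WT, and its coding sequence is 78.7% identical to that of Gm21761. B020031M17Rik, with 89.0% identity to Gm21761, was at 0.107 FPKM in SO and 0.114 FPKM in Ldha_KO and was listed at 0 in Ldhb_KO and WT. Gm21188, at 49.5% identity, was at 0.151 FPKM in Ldha_KO and 0.100 FPKM in WT and was listed at 0 in SO and Ldhb_KO.

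Since Tcstv1, Tcstv3 and the Zscan4 genes have been linked to telomeres, 24 genes of telomere maintenance were examined beside them. None was called in any of the 5 comparisons, and their medians were -0.07 in SO, -0.13 in Ldha_KO and -0.12 in Ldhb_KO, each against WT. With 2.69% of background genes called higher and 0.472% lower in SO against WT, a count of 0 among 24 genes is near the background. Tert, the telomerase catalytic subunit, was at 6.89 FPKM in SO, 4.38 FPKM in Ldha_KO, 6.21 FPKM in Ldhb_KO and 4.75 FPKM in WT. Of the 20 listed regulators of the 2-cell state, 0 were called against WT in SO, where 2.69% of background genes were called higher and 0.472% lower. Dppa3, a maternal factor, was the only one called in the knockouts against WT, lower in Ldha_KO and higher in Ldhb_KO, where 1.06% and 3.36% of background genes were called in those directions. Dppa3 was at 4.24 FPKM in SO, 0.952 FPKM in Ldha_KO, 10.3 FPKM in Ldhb_KO and 4.03 FPKM in WT. Dux, which activates 2-cell genes, was at 0.161 FPKM in SO and 0.254 FPKM in Ldha_KO and was listed at 0 in Ldhb_KO and WT.

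RefSeq promoter windows (GRCm38.p6) were at hand for Gm21761, AF067061 and BC147527. The 250 bases before the start are shown for Gm21761 (minus strand, chr13:119913469-119913718) and AF067061 (plus strand, chr13:120262845-120263094), because these copies have nearly the same sequence there and very different levels. Capitals mark the letters TGATTCAAT and TATATAA, which were picked after the sequences had been read.
Gm21761: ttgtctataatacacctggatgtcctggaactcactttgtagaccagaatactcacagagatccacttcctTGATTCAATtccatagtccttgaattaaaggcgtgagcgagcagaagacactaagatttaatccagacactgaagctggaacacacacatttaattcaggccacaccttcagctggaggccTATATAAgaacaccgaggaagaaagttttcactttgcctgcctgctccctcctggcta
AF067061: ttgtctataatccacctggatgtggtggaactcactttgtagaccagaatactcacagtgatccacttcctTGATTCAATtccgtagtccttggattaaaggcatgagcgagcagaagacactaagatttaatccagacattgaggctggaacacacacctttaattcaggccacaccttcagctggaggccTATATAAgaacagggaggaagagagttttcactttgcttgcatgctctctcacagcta
The windows are 92.4% identical, and both hold TGATTCAAT with its first letter 179 bases before the start and TATATAA 58 bases before it. On either strand TGATTCAAT occurs in 0.110% and TATATAA in 3.04% of 32851 RefSeq promoter windows of this length, and because the windows are copies their shared letters count once. Other motifs were searched on either strand. They were a motif of 11 letters like those the Dux homeobox factor binds (0.177% of windows) and TGCACAC, which Zscan4c binds (3.67%). TATAAA (12.4%) and CCAAT (33.8%) were searched as well. None of these other motifs occurs in full in the windows of Gm21761, AF067061 or BC147527. TGATTCAAT matches the first 9 of the 11 letters of the Dux-like motif, so the windows of Gm21761 and AF067061 hold that part of it. Binding by Dux was not tested. The BC147527 window is 45.7% identical to that of Gm21761 and 45.5% to that of AF067061, and holds neither TGATTCAAT nor TATATAA. Gm21761 stood at 73.7 FPKM in SO against 11.1 FPKM in WT, and AF067061 at 0.670 FPKM in SO against 0.120 FPKM in WT. On the linear scale the SO library was thus 6.62-fold above WT for Gm21761 and 5.56-fold for AF067061, from low values of AF067061.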

How the data were processed

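The submitters' processing notes name build mm9 with edgeR 3.26.8, HTSeq 0.11.2, SAMtools 1.9 and Bowtie2 2.3.4.3, without saying which did what or which annotation was used. The deposited tables give 1 value per gene and library, read as FPKM made by the authors, since they are not whole, total 471595 to 526316 per library and rise in steps of gene-specific size. The depth in reads is unknown, so no counting interval is given. Differences of log2(FPKM + 1) were computed with pandas 2.3.3 and NumPy 2.4.6 over genes with at least 1 FPKM in a library, and called at 1. No test was possible with 1 library per group. Sequences came from GENCODE M21 and RefSeq (GRCm38.p6) and were aligned with Biopython 1.88. No coordinates were carried between builds. Missing list symbols were looked up among RefSeq synonyms. The members, lists, comparisons and naming rules were chosen with earlier results of these data known. Genes named are the members, Ldha and Ldhb, the nearest patterns, listed neighbours (all 3 named after their values were seen) and list genes, of which Dcn, Lum, Thy1, Fbln1, Pdgfrb, Calcoco2, Zfp534, Zfp809, Dppa3, Tert and Dux were picked after their values were seen.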

Additional observations from a re-analysis of the deposited data

How the results depend on the processing

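The cluster sum kept its direction and its side of the 2-fold call under all 5 alternatives in 4 comparisons, from 1.84 to 2.86 in SO against WT, 1.81 to 2.24 in Ldha_KO against WT, 1.92 to 2.21 in Ldha_KO against Ldhb_KO and 0.03 to 0.70 in SO against Ldha_KO, whose lowest value is the sum of Tcstv1 and Tcstv3. In Ldhb_KO against WT it stayed uncalled, from -0.13 to 0.08, the last without Gm21761. Rescaling to the summed value of WT moved the median of all genes in SO against WT from -0.04 to 0.10, and the cluster sum lay 2.76 above that median. With a pseudocount of 0.1, genes called higher numbered 808 in SO, 868 in Ldha_KO and 1141 in Ldhb_KO, each against WT, 419 in Ldha_KO against Ldhb_KO and 361 in SO against Ldha_KO, instead of 353, 348, 441, 219 and 98. With a filter of 5 they numbered 234 in SO and 262 in Ldhb_KO against WT. That filter left 4 instead of 5 members called higher in SO and in Ldha_KO, each against WT. Under that pseudocount 8 uncalled single differences of Tcstv1, AF067061 and BC147527 passed the call, among them AF067061 at 2.54 and Tcstv1 at 2.23 in Ldha_KO against WT, and Tcstv1 at 1.11 in Ldhb_KO against WT, where no member was called with a pseudocount of 1. After rescaling to the summed value of WT, AF067061 in Ldha_KO against WT (1.04) and BC147527 in Ldha_KO against Ldhb_KO (1.05) also passed it. The same rescaling raised all genes called higher from 348 to 489 in Ldha_KO against WT and from 219 to 244 between the knockouts. Tcstv1, AF067061 and BC147527 may rest on few reads. No paired analysis was possible because each group has 1 library.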
